A study of Mus musculus with 8 samples.

Results

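The MHC class II genes were examined in duct cells sorted from mouse liver. The 10 genes were chosen by symbol: H2-Aa, H2-Ab1, H2-Eb1, H2-DMa, H2-DMb1, H2-DMb2, H2-Oa, H2-Ob, Cd74 and Ciita. All 10 were found among the 20377 gene symbols of the deposited tables. RNA sequencing compared ST14high cells with ST14low cells, with 4 libraries each, numbered replicates 1 to 4. Both populations came from wild-type C57BL/6 livers and shared one gate: cells other than hepatocytes that bound the duct cell antibody MIC1-1C3, lacked CD26 and were not blood cells. They differed in the level of ST14 (matriptase, a serine protease anchored in the membrane of epithelial cells) at the surface. The ages of the mice, the antibodies used to remove blood cells and whether the replicates came from separate animals are not stated in the labels. The p-values therefore cover the spread among these libraries alone, and that spread may be technical.

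MHC class II molecules present peptides from endosomes to CD4 T cells. An alpha chain and a beta chain pair in the endoplasmic reticulum around the invariant chain (Cd74), which blocks the groove and guides the complex to endosomes. There the invariant chain is cut away, H2-DM exchanges its remnant for antigen peptides, and H2-DO restrains H2-DM. Ciita is the coactivator that switches on the class II genes, and interferon gamma induces it in many cell types. Dendritic cells, B cells and macrophages are the usual class II cells, and epithelial cells can acquire class II during inflammation. C57BL/6 mice make I-A (H2-Aa with H2-Ab1) and no I-E, because their H2-Ea gene is inactive, so H2-Eb1 lacks its usual partner. The deposited tables list that gene as H2-Ea-ps, and it had 0 counts in all 8 libraries.

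Class II promoters carry a conserved module that Ciita acts through: an X box, bound by the RFX complex, and downstream of it a CCAAT element (Y box), bound by NF-Y. Promoter windows from RefSeq (build GRCm38.p6, from 250 bases before to 50 bases after each start site) matched 7 of the 10 genes; H2-Ab1, Cd74 and Ciita had no entry. The 150 bases just before the start site are shown for the 6 genes in which the CCAAT element was found there, since these letters are the shared control region of genes whose levels are compared here. Capitals mark, on the gene's own strand, the X box core AGNAAC and the CCAAT element read as ATTGG.
H2-Aa (chr17:34287824-34287973, minus strand): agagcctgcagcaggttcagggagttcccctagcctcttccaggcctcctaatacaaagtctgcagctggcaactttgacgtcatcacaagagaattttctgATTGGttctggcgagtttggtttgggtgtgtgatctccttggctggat
H2-Eb1 (chr17:34305717-34305866, plus strand): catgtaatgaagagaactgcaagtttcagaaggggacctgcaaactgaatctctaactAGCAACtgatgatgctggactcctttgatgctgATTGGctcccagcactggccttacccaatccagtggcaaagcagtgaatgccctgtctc
H2-DMb1 (chr17:34153041-34153190, plus strand): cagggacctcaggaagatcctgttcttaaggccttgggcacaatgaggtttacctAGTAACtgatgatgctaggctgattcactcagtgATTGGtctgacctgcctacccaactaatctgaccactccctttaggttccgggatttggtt
H2-DMb2 (chr17:34145099-34145248, plus strand): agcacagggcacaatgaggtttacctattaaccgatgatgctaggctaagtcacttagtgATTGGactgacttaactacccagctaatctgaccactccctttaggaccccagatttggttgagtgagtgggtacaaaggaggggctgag
H2-Oa (chr17:34092229-34092378, plus strand): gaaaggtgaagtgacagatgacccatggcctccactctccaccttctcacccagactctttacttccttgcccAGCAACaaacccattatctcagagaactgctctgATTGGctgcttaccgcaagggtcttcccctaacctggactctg
H2-Ob (chr17:34238755-34238904, plus strand): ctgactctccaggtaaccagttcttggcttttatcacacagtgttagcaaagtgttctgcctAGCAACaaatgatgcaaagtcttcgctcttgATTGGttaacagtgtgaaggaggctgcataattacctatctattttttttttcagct
The 2 motifs do not overlap. The X box core began 34 bases before the CCAAT element in H2-DMb1 and H2-Oa, 33 bases before it in H2-Eb1 and 31 bases before it in H2-Ob. AGNAAC was not found in the windows of H2-Aa and H2-DMb2, which says only that these letters are not there. Searched on both strands, ATTGG was in 7 of the 8 class II windows (H2-DMa has 2) and in 37.4% of all 32851 promoter windows of the same length. AGNAAC was in 5 of the 8 and in 48.1% of all. The pair in that order, with 25 to 45 bases between their first letters, was in 4 of the 8 and in 1.14% of all. The motif letters and the spacing were chosen after reading the members' windows, and a match is a description of letters, not a binding site.

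The libraries held from 6398307 counts in ST14low replicate 3 to 42769988 counts in ST14high replicate 3. ST14high replicate 1 stood apart from the others on the first principal component of the log2 expression values, at -107, and the other 7 libraries ranged from -11.5 to 55.5. Levels are given as CPM, counts scaled to the library total after adjustment by TMM factors, which correct for differences in composition between libraries. The duct label fitted the marker genes: the epithelial surface protein Epcam averaged 569.9 ± 41.8 CPM in ST14high cells and 580.7 ± 54.7 CPM in ST14low cells (mean ± SD, n = 4 libraries each, as for all means below). St14, the gene of the sorted protein, was at 304.6 ± 32.5 CPM in ST14high cells and 329.4 ± 48.9 CPM in ST14low cells, with an adjusted p of 0.809 in edgeR's quasi-likelihood test.

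Compared per length of transcript, with the authors' RPKM, the class II genes spanned a wide range and kept nearly the same order in every library. Cd74 was first and H2-Ab1 second in 8 of 8 libraries. Cd74 was at 99.7 ± 42.9 RPKM in ST14high and 166 ± 81.6 RPKM in ST14low, higher than 96.9% of the genes tested when averaged over all libraries. H2-Ab1 was at 36.5 ± 24.9 RPKM in ST14high and 71.8 ± 38.3 RPKM in ST14low. H2-Aa, its partner chain, was above the partnerless H2-Eb1 in 8 of 8 libraries, at 18.6 ± 12.8 RPKM in ST14high and 44.7 ± 26.4 RPKM in ST14low. H2-Eb1 was at 13.6 ± 9.63 RPKM in ST14high and 31.1 ± 19.2 RPKM in ST14low. The means of H2-Aa and H2-Eb1 lay within 1 SD of each other in both populations, although their order within libraries never changed. H2-DMb1 and H2-DMa, the chains of the peptide exchanger, came next and had no fixed order, with H2-DMb1 above H2-DMa in 5 of 8 libraries. Ciita lay below both in 8 of 8 libraries, at 1.24 ± 0.838 RPKM in ST14high and 2.16 ± 1.496 RPKM in ST14low. H2-Ob, H2-DMb2 and H2-Oa were lowest on average, at 0.325, 0.163 and 0.125 RPKM in ST14high and 0.955, 0.623 and 0.518 RPKM in ST14low.

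The comparison asks whether class II transcripts differ between duct cells with high and low surface ST14. Mean CPM of all 10 genes were lower in ST14high than in ST14low, but no gene separated the 2 populations and none passed the test over all genes. The I-A chains and the partnerless H2-Eb1 had the largest differences among the well-counted members: H2-Aa had a log2 fold change of -1.25 (SE 0.52), H2-Eb1 of -1.18 (SE 0.53) and H2-Ab1 of -0.97 (SE 0.47). For every member the libraries of the 2 populations overlapped. ST14high replicate 2 resembled ST14low libraries, and ST14low replicate 3 exceeded all others for 7 of the 10 genes. In bulk RNA such as this, fewer cells of a type and less RNA per cell cannot be told apart.

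H2-Aa encodes the alpha chain of I-A. It was at 16.3, 31.0, 5.52 and 12.8 CPM in ST14high replicates 1 to 4, against 33.4, 28.3, 72.9 and 22.01 CPM in ST14low replicates 1 to 4. In ST14high, 3 libraries lay below every ST14low library and the other one, replicate 2, lay inside the ST14low range. H2-Ab1, the beta chain, was at 27.7, 69.5, 26.3 and 19.4 CPM in ST14high, against 70.7, 57.7, 120.3 and 31.8 CPM in ST14low. Again only ST14high replicate 2 reached the ST14low range, where it nearly equalled ST14low replicate 1. H2-Eb1 was at 17.8, 38.2, 6.88 and 16.0 CPM in ST14high, against 43.9, 30.9, 83.8 and 20.9 CPM in ST14low, with the same libraries high and low. The span from the lowest to the highest of the 8 libraries was 13.2-fold for H2-Aa, 12.2-fold for H2-Eb1 and 6.21-fold for H2-Ab1.

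Cd74 followed the chains with a smaller span. It was at 98.7, 168.6, 69.8 and 96.1 CPM in ST14high, against 171.5, 131.4, 303.9 and 109.3 CPM in ST14low. The lowest library was ST14high replicate 3 and the highest ST14low replicate 3, 4.36-fold apart. The tables hold 2 transcript rows for Cd74, and the row kept had the more counts. The counts it held beyond the other row were 1.42% to 3.51% of its total in ST14high libraries and 3.40% to 4.19% in ST14low libraries, so both rows rest on nearly the same reads.

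H2-DM is made of H2-DMa with H2-DMb1 or H2-DMb2. H2-DMa was at 2.27, 7.94, 2.97 and 3.85 CPM in ST14high, against 7.11, 6.44, 11.6 and 5.03 CPM in ST14low, and ST14high replicate 2 exceeded 3 of the 4 ST14low libraries. H2-DMb1 was at 6.43, 13.1, 9.55 and 8.62 CPM in ST14high, against 17.1, 13.9, 18.8 and 7.93 CPM in ST14low. Its span of 2.92-fold was the smallest of the 8 tested genes, and ST14low replicate 4 lay below 3 of the ST14high libraries. H2-DMb2, a near copy of H2-DMb1, had 7 counts in ST14high and 42 in ST14low over all libraries, of which 34 were in ST14low replicate 4. The GENCODE M21 transcripts of the 2 copies were identical at 89.8% of 1246 aligned bases and shared 27.2% of stretches of 50 bases. The handling of reads that match both is not stated in the labels, so the split between the 2 copies is uncertain.

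H2-DO, the restraint on H2-DM, is known mainly from B cells. H2-Ob, its beta chain, was at 2.27, 0.318, 0 and 0.770 CPM in ST14high, against 0.213, 1.79, 0.924 and 6.24 CPM in ST14low. H2-Oa, its alpha chain, was at 0.378, 0.0794, 0 and 0 CPM in ST14high, against 0.255, 0.460, 0.308 and 0.749 CPM in ST14low, on 8 and 41 counts in all. Both were highest in ST14low replicate 4 and both had 0 counts in ST14high replicate 3, where a count of 0 allows up to 0.0707 CPM (3 counts; counting error only). H2-DMb2, H2-Oa and H2-Ob thus shared a highest library that was not the one of the other 7 genes.

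Ciita was at 3.72, 10.6, 3.63 and 3.85 CPM in ST14high, against 10.5, 3.94, 18.3 and 5.18 CPM in ST14low. In ST14high, 3 libraries lay at nearly one level just under the lowest ST14low library, ST14low replicate 2, and ST14high replicate 2 was above all but ST14low replicate 3. The highest libraries of Ciita within each population were also the highest of H2-Aa, H2-Ab1, H2-Eb1, H2-DMa, H2-DMb1 and Cd74.

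**Figure D1:**
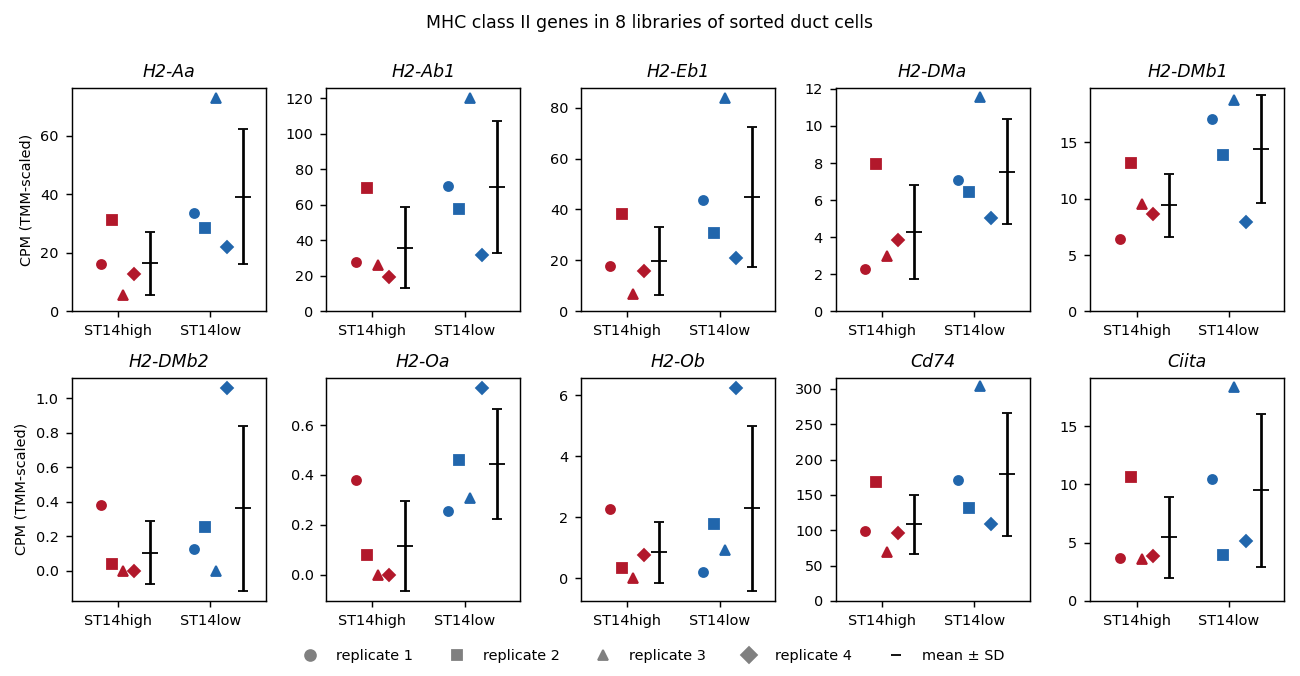
CPM (vertical axis, scaled by TMM factors) of the 10 class II genes in ST14high (red, left) and ST14low (blue, right) libraries; marker shapes give the replicate and bars the mean ± SD of 4 libraries. ST14low replicate 3 is highest for H2-Aa, H2-Ab1, H2-Eb1, H2-DMa, H2-DMb1, Cd74 and Ciita, and ST14low replicate 4 for H2-DMb2, H2-Oa and H2-Ob.

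The fit across all genes used edgeR's quasi-likelihood test with Benjamini-Hochberg adjustment. It called 0 of 13749 genes (0%) at an adjusted p of 0.05, and 0 of the 8 class II genes that passed the low-count filter; H2-DMb2 and H2-Oa did not pass it. The 8 adjusted p-values lay between 0.499 for H2-Aa and 0.717 for H2-Ob. At an unadjusted p under 0.05 there was 1 class II gene, H2-Aa, where 2.68% of all genes were lower and 6.89% higher in ST14high at that level. DESeq2's Wald test called 0 of the 8, against 0.103% of all genes lower and 1.62% higher in ST14high, and limma's voom called 0 of the 8. All 8 had a log2 fold change below 0, as did 49.7% of all genes tested, with a median of -0.89 beside 0.0023 over all genes. At or below -0.5 lay 8 of 8 class II genes and 6.05% of all genes. Genes that pass a low-count filter through 1 high group are likely to differ, so these counts are given as a description. The 95% interval of H2-Aa, from -2.40 to -0.096, stayed below 0. The intervals of the other 7 of the 8 genes reached beyond 0. Among these were H2-Ab1 from -2.01 to 0.074, H2-DMa from -1.82 to 0.20 and H2-Ob from -4.40 to 1.38. Of the 8, 0 had populations that did not overlap, against 2.33% of all genes that lay lower and 4.09% that lay higher in every ST14high library.

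**Figure D2:**
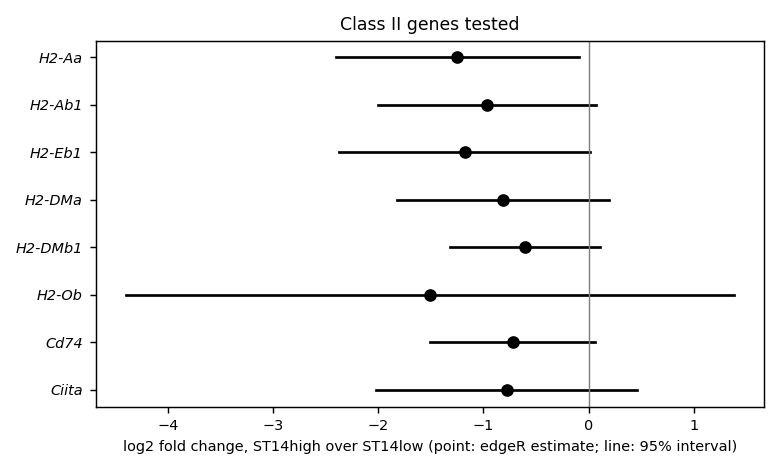
Log2 fold change (horizontal axis, ST14high over ST14low) of the 8 class II genes tested, with the edgeR estimate as a point and its 95% interval as a line. All points lie below 0, and the interval of H2-Aa alone, from -2.40 to -0.096, stays below it.

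Single libraries moved these values. Without ST14high replicate 2 the median log2 fold change of the 8 genes was -1.32. In edgeR, 7 of them then fell under the unadjusted level of 0.05, and the lowest adjusted p was 0.279, for H2-Ab1. For these 7 genes the library left out was the highest of ST14high, so its removal lowered them together. The share of all genes under that level without this library is not given, so the 7 are a description only. In that case DESeq2 called H2-Aa, H2-Ab1 and H2-Eb1 (adjusted p = 0.0154, 0.0095 and 0.0225), where it called 0.102% of all genes lower in ST14high. Without ST14low replicate 3 the median was -0.56 and 0 of the 8 class II genes had an unadjusted p under 0.05 in edgeR. The share of all genes is not given there either. Ciita moved most with these 2 libraries, at -0.78 with all 8, -1.33 without ST14high replicate 2 and -0.26 without ST14low replicate 3. H2-Ob depended on others, at -1.51 with all 8, -2.69 without ST14high replicate 1 and -0.25 without ST14low replicate 4. H2-DMb1 moved least, between -0.81 and -0.46.

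**Figure D3:**
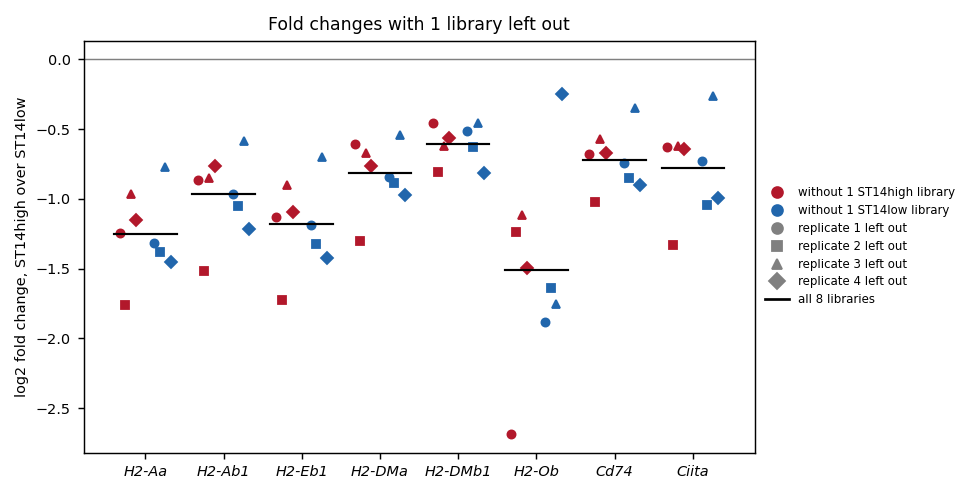
Log2 fold change (vertical axis, ST14high over ST14low) of each tested class II gene with 1 library left out, red for an ST14high and blue for an ST14low library, with the shape giving the replicate; black lines show all 8 libraries. Every value stays below 0, and leaving out ST14high replicate 2 gives the lowest value for H2-Aa, H2-Ab1, H2-Eb1, H2-DMa, Cd74 and Ciita.

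Across the 8 libraries the class II genes other than H2-Ob, H2-Oa and H2-DMb2 moved together. Over the 21 pairs among H2-Aa, H2-Ab1, H2-Eb1, H2-DMa, H2-DMb1, Cd74 and Ciita, Pearson's r of log2(CPM + 0.5) was 0.71 to 0.99, as a description over libraries that share their depth and scaling. The closest pair was H2-Aa with H2-Eb1 (r = 0.99). With H2-Ob the 7 values of r lay between -0.43 and 0.20.

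Ratios within a library do not depend on its depth, and showed where the genes differed from each other. H2-Aa per unit of Cd74, by RPKM, was 0.202, 0.226, 0.0971 and 0.163 in ST14high replicates 1 to 4, against 0.239, 0.265, 0.294 and 0.247 in ST14low. Every ST14high library thus lay below every ST14low library, by a small gap between 0.226 and 0.239. This was the only one of the 6 ratios to Cd74 in which the populations did not overlap. Over all other genes, the ratio to Cd74 lay lower in every ST14high library for 0.0582% and higher for 3.64%; Cd74 itself had a lower mean in ST14high, which raises ratios to it there. H2-Ab1 over Cd74 averaged 0.351 ± 0.105 in ST14high and 0.424 ± 0.0717 in ST14low, and H2-Eb1 over Cd74 averaged 0.125 ± 0.0393 in ST14high and 0.178 ± 0.0270 in ST14low. H2-DMb1 over Cd74 averaged 0.0944 ± 0.0320 in ST14high and 0.0867 ± 0.0214 in ST14low, and Ciita over Cd74 was 0.0118 ± 0.00288 in ST14high and 0.0121 ± 0.00356 in ST14low, each a difference within 1 SD. In ST14high replicate 3, H2-Aa was low beside its partner too, at 0.233 of H2-Ab1, where the other 7 libraries lay between 0.496 and 0.770. H2-DMb1 was high there, at 0.140 of Cd74.

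**Figure D4:**
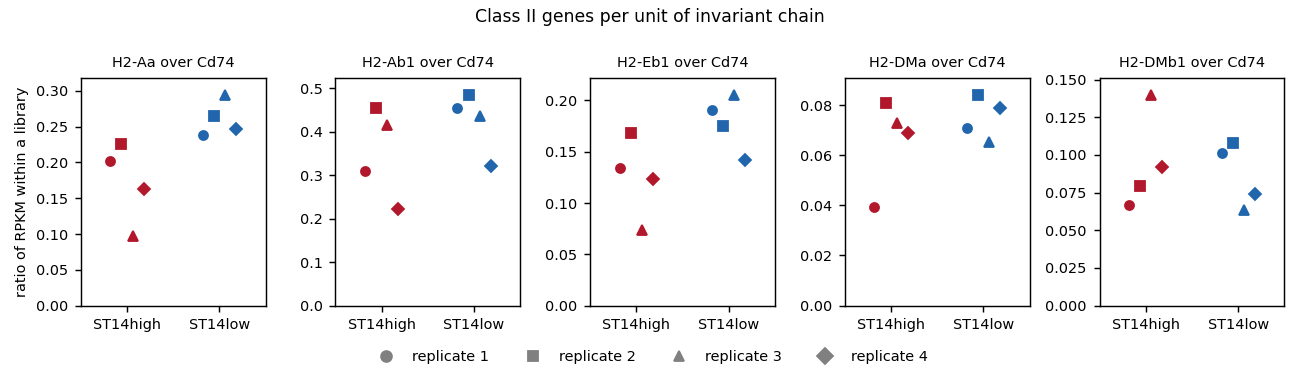
Ratio of the RPKM of 5 class II genes to that of Cd74 within each library (vertical axis, from 0), in ST14high (red, left) and ST14low (blue, right), with the shape giving the replicate. For H2-Aa the ST14high libraries lie at 0.0971 to 0.226 and the ST14low libraries at 0.239 to 0.294; for the other 4 genes the populations overlap.

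Blood cell markers differed between the libraries as well, although the gate left out blood cells. The 9 pan-leukocyte genes, such as Ptprc (CD45), summed to 43.6, 11.5, 1.06 and 45.5 CPM in ST14high, against 34.8, 75.8, 92.4 and 48.5 CPM in ST14low. All 9 had a log2 fold change below 0 and 0 were called by edgeR or DESeq2. The 14 genes of Kupffer cells and other macrophages summed to 269 to 424 CPM in ST14high cells and 439 to 1196 CPM in ST14low cells, without overlap. Csf1r, Mpeg1 and Cd68 were set apart after their values were seen. In ST14high replicate 1 and ST14low replicate 4, Csf1r was at 161 and 199 CPM and Mpeg1 at 39.2 and 59.2 CPM. Cd68 went the other way, at 22.3 and 7.49 CPM. The other 11 genes summed to 201, 68.0, 2.43 and 128 CPM in ST14high, against 222, 570.3, 700.5 and 173 CPM in ST14low, with ST14high replicate 1 above ST14low replicate 4. Taken singly, Emr1, Vsig4 and Mpeg1 did not overlap, where 2.33% of all genes lay lower in every ST14high library. The rest of the list overlapped, Csf1r and Cd68 among them. Of the 14 genes, 13 had a log2 fold change below 0. DESeq2 called 1, Mpeg1 (adjusted p = 0.0157), where it called 0.103% of all genes lower in ST14high. The 10 B cell genes summed to 15.2, 2.26, 0.424 and 5.90 CPM in ST14high, against 6.98, 11.9, 17.1 and 39.7 CPM in ST14low. The highest of these, ST14low replicate 4, was the library in which H2-Ob, H2-Oa and H2-DMb2 were highest. The 11 dendritic cell genes summed to 10.7 to 19.1 CPM in ST14high cells and 13.0 to 28.0 CPM in ST14low cells, and the 11 genes of T and NK cells to 3.56 to 4.33 CPM in ST14high cells and 6.47 to 11.1 CPM in ST14low cells. All 4 tested genes of the T and NK cell list lay below 0, and DESeq2 called 1, Gzma (adjusted p = 0.0405), beside the same 0.103% of all genes. The 12 endothelial genes summed to 1219, 276, 42.7 and 432 CPM in ST14high, against 351, 1027, 1321 and 331 CPM in ST14low. The 12 genes of mesothelium and fibroblasts went the other way, with sums of 653 to 3280 CPM in ST14high cells and 233 to 436 CPM in ST14low cells. All 12 lay above 0 and DESeq2 called 7, where it called 1.62% of all genes higher in ST14high. The part of these cells in the class II differences was not tested.

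ST14high replicate 3 nearly lacked the pan-leukocyte genes, the B cell genes and most of the macrophage list, and still held class II transcripts. It did not lack every marker. Its T and NK cell sum was 3.56 CPM, all of it from Lck, and its mesothelium and fibroblast sum was 653 CPM. Ptprc had 0 counts there, the 9 pan-leukocyte genes summed to 1.06 CPM and the 10 B cell genes to 0.424 CPM. Of the macrophage list, 11 genes summed to 2.43 CPM, with Clec4f, Cd5l, Vsig4, C1qa and Lyz2 among them, while Csf1r was at 235 CPM, Mpeg1 at 27.0 CPM and Cd68 at 4.81 CPM. Of the dendritic cell list, Flt3, Itgax, Xcr1 and Clec9a had 0 counts and Zbtb46 was at 10.1 CPM. In the same library Cd74 was at 69.8 CPM on 2960 counts, H2-Ab1 at 26.3 CPM on 1116 counts, H2-DMb1 at 9.55 CPM on 405 counts and Ciita at 3.63 CPM on 154 counts. H2-Aa was at 5.52 CPM on 234 counts, H2-Eb1 at 6.88 CPM on 292 counts and H2-DMa at 2.97 CPM on 126 counts. For H2-Aa, H2-Eb1, Cd74 and Ciita this was the lowest of all libraries. H2-Ob, H2-Oa and H2-DMb2 had 0 counts there. Against ST14low replicate 3, the pan-leukocyte sum was 1.06 beside 92.4 CPM, and Cd74 was 69.8 beside 303.9 CPM. ST14high replicate 2 also had few pan-leukocyte transcripts, 11.5 CPM, beside the highest Cd74 of its population, 168.6 CPM. ST14low replicate 2 had the second highest pan-leukocyte sum, 75.8 CPM, beside a Cd74 of 131.4 CPM.

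**Figure D5:**
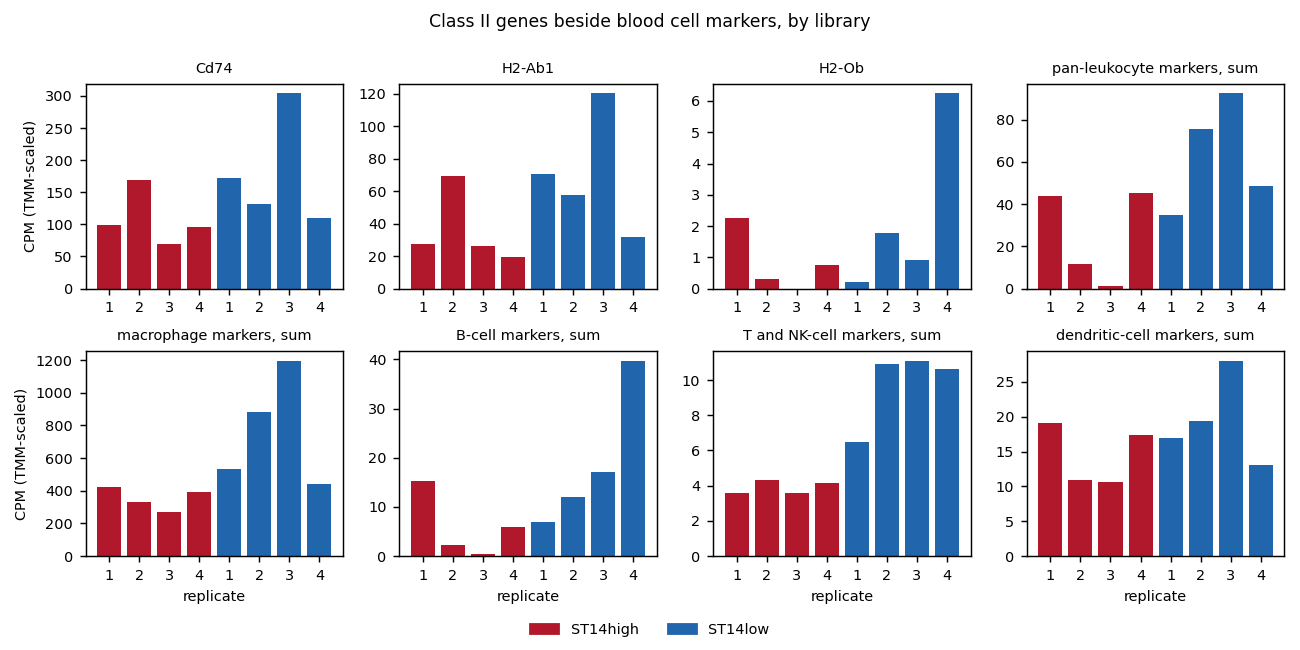
CPM (vertical axis, from 0) of Cd74, H2-Ab1 and H2-Ob and summed CPM of 5 lists of blood cell markers, in each ST14high (red, left) and ST14low (blue, right) library by replicate number. ST14high replicate 3 has a pan-leukocyte sum of 1.06 CPM beside a Cd74 of 69.8 CPM.

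Genes that control class II lay on both sides of 0. Of 13 transcription factors of class II genes and of Ciita, 6 had a log2 fold change above 0 and 7 below 0, with a median of -0.0079, and edgeR and DESeq2 called 0. Irf1, a transcription factor induced by interferons, was at 448.8, 202.5, 172 and 210.5 CPM in ST14high, against 224, 178, 219 and 205 CPM in ST14low. Its higher mean in ST14high rested on replicate 1, the library that stood apart, and the other 3 lay within or below the ST14low range. Rfx5, Rfxap and Rfxank, the RFX subunits, had log2 fold changes of 0.10, 0.27 and 0.02. The values furthest from 0 among these factors were negative: Sfpi1 at -2.38, Irf4 at -1.10 and Irf8 at -0.94. Sfpi1 averaged 0.848 CPM in ST14high and 4.32 CPM in ST14low. For Sfpi1, Irf4 and Irf8 the libraries of the populations overlapped. They and the RFX subunits were named after their values were seen. Of 9 tested genes of interferon gamma signalling, 6 lay above 0 and 3 below 0, with 0 called; Jak1, its receptor kinase, was at 217 ± 28.6 CPM in ST14high cells and 237 ± 36.5 CPM in ST14low cells. Ifng itself had 7 counts over all libraries. Of 16 interferon gamma targets outside class II, 4 lay above 0 and 12 below 0, with a median of -0.15 and 0 called. The highest were B2m, the light chain of class I, at 794, 1179, 1229 and 1529 CPM in ST14high, against 1080, 1257, 1307 and 1229 CPM in ST14low, and Tapbp, a class I chaperone, at 279 ± 46.0 CPM in ST14high cells and 316 ± 12.3 CPM in ST14low cells.

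The genes that act beside class II were also uncalled in edgeR and DESeq2. Of 9 genes of endosomal antigen processing found in the files, 2 lay above 0 and 7 below 0, with a median of -0.15. The endosomal proteases Ctsb, at 562 ± 205 CPM in ST14high cells and 615 ± 107 CPM in ST14low cells, and Ctsd, at 389 ± 52.1 CPM in ST14high cells and 441 ± 118 CPM in ST14low cells, were highest. Ctss, which cuts the invariant chain and is named here after its values were seen, was at 12.04, 5.08, 0.141 and 8.77 CPM in ST14high, against 14.1, 30.2, 47.0 and 17.7 CPM in ST14low. Its populations did not overlap (adjusted p = 0.504 in edgeR), where 2.33% of all genes lay lower in every ST14high library. It was nearly absent from ST14high replicate 3, as were the pan-leukocyte genes. The populations also did not overlap for Ctsh, another endosomal protease named after its values were seen, at 54.2, 90.1, 87.8 and 82.8 CPM in ST14high, against 103, 139, 98.1 and 107 CPM in ST14low (adjusted p = 0.446 in edgeR). Unlike Ctss, it was not low in ST14high replicate 3 beside the other ST14high libraries. March1, a ubiquitin ligase that removes class II from the surface of dendritic cells and B cells, was at 0.820 ± 0.550 CPM in ST14high cells and 3.38 ± 2.52 CPM in ST14low cells (adjusted p = 0.393 in edgeR), and its relative March8 was at 190 ± 17.4 CPM in ST14high cells and 215 ± 19.8 CPM in ST14low cells (adjusted p = 0.653 in edgeR). Of 5 tested costimulatory ligands 3 lay above 0 and 2 below 0. Cd274 (PD-L1) was highest, at 13.2 ± 1.77 CPM in ST14high cells and 12.8 ± 4.21 CPM in ST14low cells. Icosl came next, at 9.58, 2.34, 1.25 and 1.16 CPM in ST14high, against 2.38, 2.15, 4.16 and 1.53 CPM in ST14low, and only ST14high replicate 1 exceeded the ST14low range.

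Genes of most similar pattern were ranked by Pearson's r, over the 8 libraries, between log2(CPM + 0.5) and the mean of the standardized profiles of the 8 tested class II genes, among 11365 other genes with a mean of at least 5 CPM. The first 10 were Gm12250, Eif4e3, H2-Q6, Tap1, Masp1, Upp2, Ikbkg, Ube2n, Ntn4 and Mpeg1, with r from 0.96 to 0.90. Values in every library follow for 3 of them, which do not stand for the rest. Gm12250, an interferon-inducible GTPase, was at 6.24, 11.9, 5.30 and 4.89 CPM in ST14high, against 10.2, 11.3, 16.2 and 8.21 CPM in ST14low. Tap1, which carries peptides to class I molecules, was at 58.9, 84.2, 64.4 and 70.2 CPM in ST14high, against 93.7, 98.1, 113.5 and 78.3 CPM in ST14low. Mpeg1, a pore-forming protein of macrophages, was at 39.2, 50.001, 27.0 and 53.4 CPM in ST14high, against 76.5, 91.1, 168.8 and 59.2 CPM in ST14low. In each of these 3, as in 7 of the 8 tested class II genes, ST14low replicate 3 was highest. H2-Ob was highest in ST14low replicate 4. The profile was itself highest in ST14low replicate 3, so genes picked for likeness to it tend to be highest there too. Ube2n, also among the first 10, was highest in ST14high replicate 2, at 32.09 CPM beside 32.04 CPM in ST14low replicate 3. The profile itself had r of 0.82 to 0.98 with its members other than H2-Ob and 0.044 with H2-Ob.

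In the build mm9, which the files use, 8 of the genes lie on chromosome 17. H2-Oa (positions 34229323 to 34232179), H2-DMa (34272615 to 34275480), H2-DMb2 (34282360 to 34288040), H2-DMb1 (34290135 to 34297174), H2-Ob (34375849 to 34382853), H2-Ab1 (34400171 to 34406363) and H2-Eb1 (34442811 to 34453619) are on the plus strand, and H2-Aa (34419695 to 34424716) is on the minus strand. Ciita lies on chromosome 16 (10488371 to 10527657) and Cd74 on chromosome 18 (60963502 to 60972306). Of the genes highest in ST14low replicate 4, H2-DMb2 lies between H2-DMa and H2-DMb1, and H2-Ob lies next to H2-Ab1 among the genes listed here. H2-Eb2, a further class II gene of this cluster, had 31 counts over all libraries, 1 in ST14high and 30 in ST14low.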

How the data were processed

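Per the labels, RNA was made from sorted cells and sequenced from Illumina TruSeq libraries. The submitters' processing notes list Bowtie 1.0.0, CASAVA 1.8.2 and mm9 without a role; which program, annotation release and strand setting gave the counts is not stated there. Per the file headers, the tables give raw counts and RPKM for each of 26005 RefSeq transcripts. The deposited counts are unnormalized whole numbers. The RPKM values, scaled by the authors to transcript length and library size, were used only to compare genes within libraries.

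For each symbol the transcript with the most counts was kept. The procedure was run on simulated data with larger changes than those of the class II genes and the same spread for every gene. That run does not cover the changes and the uneven libraries seen here. Genes kept by filterByExpr were fitted with edgeR 4.0.16 in R 4.3.3 (quasi-likelihood test, TMM factors, population as the only term, two-sided, Benjamini-Hochberg adjustment over all genes, threshold 0.05). CPM use the same factors. DESeq2 1.42.0 and limma 3.58.1 (voom with quality weights) were other tools. Further settings were DESeq2's size factors, upper-quartile factors, no filter, the replicate number as a block, the longest transcript and leaving out each library. All 10 members are named, with the 2 genes of highest mean of each pathway list and the 10 genes most like the members' profile; other genes were named after their values were seen, and 1 gene that this rule names is not reported here. Members and lists were chosen with earlier results of these data known. Reads shared by similar or overlapping genes could not be separated. Depth set the precision: a count of 0 allows 0.0707 CPM in ST14high replicate 3 and 0.462 CPM in ST14low replicate 3.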

Additional observations from a re-analysis of the deposited data

Results flagged for a closer look

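Within the populations of 4 libraries, 3 of the 20 sets of values had a library far from its 3 neighbours by Dixon's test at 95%, and chance flags about 1 in 20. H2-Ab1 was at 69.5 CPM in ST14high replicate 2, above the other ST14high libraries at 19.4 to 27.7 CPM. Ciita was at 10.6 CPM in the same library, above the other ST14high libraries at 3.63 to 3.85 CPM. H2-DMb2 was at 0.378 CPM in ST14high replicate 1, where the other ST14high libraries were at 0 to 0.0397 CPM. This flag rests on 6 counts, beside 1, 0 and 0 counts in replicates 2 to 4. With so few counts the rate of about 1 in 20 need not hold for it.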

How the results depend on the processing

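With all genes tested, edgeR called 0 with TMM, DESeq2's size factors, upper-quartile factors, no filter and the longest transcript, limma's voom called 0 and DESeq2 called 234. Leaving out 1 library, edgeR called 0 to 0 genes and DESeq2, a setting added after seeing the data, 283, 262, 421 and 216 without ST14high replicates 1 to 4 and 161, 177, 319 and 163 without ST14low replicates 1 to 4. Without ST14high replicate 1 and ST14low replicate 3 together, also added after seeing the data, edgeR called 35 genes and 0 class II genes, with a class II median of -0.41. The number of class II genes called was 0 in every edgeR and voom setting, and with DESeq2 0 to 3 when 1 library was left out, the 3 being called without ST14high replicate 2. The class II median was -0.33 in voom and lay between -1.32 and -0.56 when 1 library was left out. Of 192 values of single class II genes under the 24 settings, 191 lay below 0; H2-DMb1 was at 0.0063 in voom, and the cause was not tested. Deviations of same-numbered libraries had correlations from -0.12 to 0.052, and those of libraries with different numbers from -0.20 to 0.24. With so few libraries and values this close to 0, this cannot decide whether the number pairs them. The fit with the replicate block called 2 genes, 0 of them class II, and gave a class II median of -0.96. ST14low replicate 3, the highest library for 7 of the 10 genes, was also the shallowest.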
